A study of Homo sapiens with 6 samples.

Results

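A set of 10 genes of the route by which cells cut proteins and show the peptides on MHC class I were followed after knockdown of CDK4 and CDK6. They were PSMB8, PSMB9 and PSMB10, TAP1, TAP2, TAPBP, B2M, NLRC5, ERAP1 and ERAP2, taken as 10 of the 19775 genes on the array. Every probe set whose platform annotation named one of them was used, which gave 25 of the 54613 probe sets that were not array controls. A probe set is a group of short probes read as 1 value, and some probe sets match more than 1 transcript or gene. The brightest probe set of a gene, by its mean over all 6 arrays, stands for it below, and the other 15 are given beside it. PSMB8, PSMB9, PSMB10, TAP1 and NLRC5 had 1 probe set each, and the remaining 5 genes had several.

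The cells were HCT116, a human colorectal carcinoma line. The CDK4/6 siRNA group received a mix of a CDK4 siRNA pool and a CDK6 siRNA, 30 nM of each, and the control siRNA group received 30 nM each of the matching non-targeting pool and negative control siRNA. Lipofectamine RNAiMAX carried the siRNA into both groups, total RNA was taken 96 h after transfection, and each group had 3 arrays, called biological replicates in the labels. The labels name no interferon treatment, and they do not say whether the replicates were separate cultures, so the p-values rest on array-to-array spread that may be technical. The series title places the comparison within adaptive responses to CDK4/6 inhibition and names MYC addiction. The model is a partial knockdown in 1 cell line. By its brightest probe set, CDK6 averaged 8.84 on the log2 scale in CDK4/6 siRNA cells and 10.39 in control siRNA cells. That left 34.0% of the control level. CDK6 had 7 probe sets, and the others left 30.1% to 90.6% of their control levels. The one at 90.6% did not pass the test described below (adjusted p 0.364, limma). CDK4 averaged 9.52 in CDK4/6 siRNA cells and 10.21 in control siRNA cells, which left 62.2%.

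MHC class I molecules carry short peptides to the cell surface, where cytotoxic T cells read them. The proteasome cuts proteins into such peptides, and the immunoproteasome is a form in which PSMB8, PSMB9 and PSMB10 replace the constitutive catalytic subunits PSMB5, PSMB6 and PSMB7. TAP1 and TAP2 pump the peptides into the endoplasmic reticulum, ERAP1 and ERAP2 trim them, tapasin (TAPBP) helps load them, B2M is the light chain of every class I molecule, and NLRC5 is a transactivator of class I genes. Interferon gamma is the classical inducer of most of these genes.

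The promoter windows of 4 genes are printed because they belong to the 3 genes whose expression passed the test and to TAP1, the divergent neighbour of PSMB9. They come from RefSeq (GRCh38.p14) and run from 250 bases before the gene start to the end of the first 50 bases of the gene, 5′ to 3′ on the gene's strand. RefSeq gave a window for 9 of the 10 genes, 13 windows in all, and none for NLRC5. Capitals mark GAAANNGAA on either strand, the core of the element bound by interferon regulatory factors. PSMB10 lies at chr16:67936801-67937100, minus strand. TAP2 lies at chr6:32838690-32838989, minus strand. PSMB9 lies at chr6:32853942-32854241, plus strand. TAP1 lies at chr6:32853655-32853954, minus strand.
PSMB10: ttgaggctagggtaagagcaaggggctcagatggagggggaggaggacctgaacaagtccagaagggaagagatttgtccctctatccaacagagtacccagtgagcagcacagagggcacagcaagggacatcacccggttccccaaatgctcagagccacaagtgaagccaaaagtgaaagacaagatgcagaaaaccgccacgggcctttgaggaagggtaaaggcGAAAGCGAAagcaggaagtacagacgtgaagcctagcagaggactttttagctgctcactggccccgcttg
TAP2: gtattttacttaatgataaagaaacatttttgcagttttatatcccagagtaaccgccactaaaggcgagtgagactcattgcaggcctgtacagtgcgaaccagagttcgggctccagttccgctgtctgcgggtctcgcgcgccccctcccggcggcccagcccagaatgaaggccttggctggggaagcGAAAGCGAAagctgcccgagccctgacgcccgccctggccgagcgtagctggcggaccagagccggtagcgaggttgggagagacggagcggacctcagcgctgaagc
PSMB9: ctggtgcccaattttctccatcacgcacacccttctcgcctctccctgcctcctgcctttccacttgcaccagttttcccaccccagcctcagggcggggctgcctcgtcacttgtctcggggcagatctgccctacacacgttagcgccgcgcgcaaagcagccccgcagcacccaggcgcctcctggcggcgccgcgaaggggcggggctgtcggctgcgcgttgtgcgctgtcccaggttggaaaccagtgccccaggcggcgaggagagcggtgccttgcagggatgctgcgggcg
TAP1: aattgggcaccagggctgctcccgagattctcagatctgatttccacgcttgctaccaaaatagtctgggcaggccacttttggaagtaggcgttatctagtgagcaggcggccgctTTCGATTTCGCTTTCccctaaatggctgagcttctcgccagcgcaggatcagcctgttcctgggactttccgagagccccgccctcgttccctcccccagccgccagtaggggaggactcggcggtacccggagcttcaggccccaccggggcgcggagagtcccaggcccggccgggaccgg

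GAAANNGAA was found in 8 of the 13 windows, 1 in each of 8 of the 9 genes, and PSMB9 was the gene without it. The same letters occur in 8.11% of all 35116 promoter windows. Counted from the gene start, the match began at position -21 in PSMB10 and at position -58 in TAP2. TAP1 carried a pair of overlapping matches on the opposite strand, at positions -133 and -127. The starts of TAP1 and PSMB9 lie 487 bases apart on opposite strands and their windows overlap by 13 bases, so the TAP1 matches lie 355 to 369 bases before the start of PSMB9, outside the window searched for it. The interferon gamma activated site TTCNNNGAA was found in windows of PSMB8 and TAP1, against 7.66% of all windows. The kappaB letters GGGACTTTC were found in TAP1 and B2M, against 0.387% of all windows, and both strands were searched throughout. The E-box CACGTG, bound by MYC and MAX, was found in 0 of the 13 windows, against 7.26% of all. A match describes letters in a window and says nothing of binding.

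Of the 10 genes, PSMB10 and TAP2 rose after CDK4/6 siRNA, PSMB9 fell, and 7 did not pass the test. The test was limma's moderated test over all 54613 probe sets, with Benjamini-Hochberg adjustment and a threshold of 0.05. In this test 8.86% of all probe sets were called higher and 8.17% lower. A separate fit and adjustment took only the brightest probe set of each of the 19775 genes. It called 14% of the genes higher and 12.9% lower, and of the 10 genes it too called 2 higher and 1 lower. Of the 25 probe sets, 3 were higher and 2 lower. The groups did not overlap at 9 of the 25 probe sets, against 32.6% of all probe sets. They did not overlap at 6 of the 10 genes, for which the matching share over all genes was not worked out. The median difference of the 10 genes was 0.04 on the log2 scale, against -0.0011 over all genes and -0.0040 for all probe sets. The median size of the difference was 0.13 for the 10 genes, against 0.097 for all probe sets. These 2 sizes are not of like sets, since only the first takes the brightest probe set of each gene. The median size over all genes was not worked out. SDs within a group ran over the 25 probe sets between 0.011 and 0.264. The counts of calls are thus near the shares of the array as a whole, and the direction differed between the genes.

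**Figure D1:**
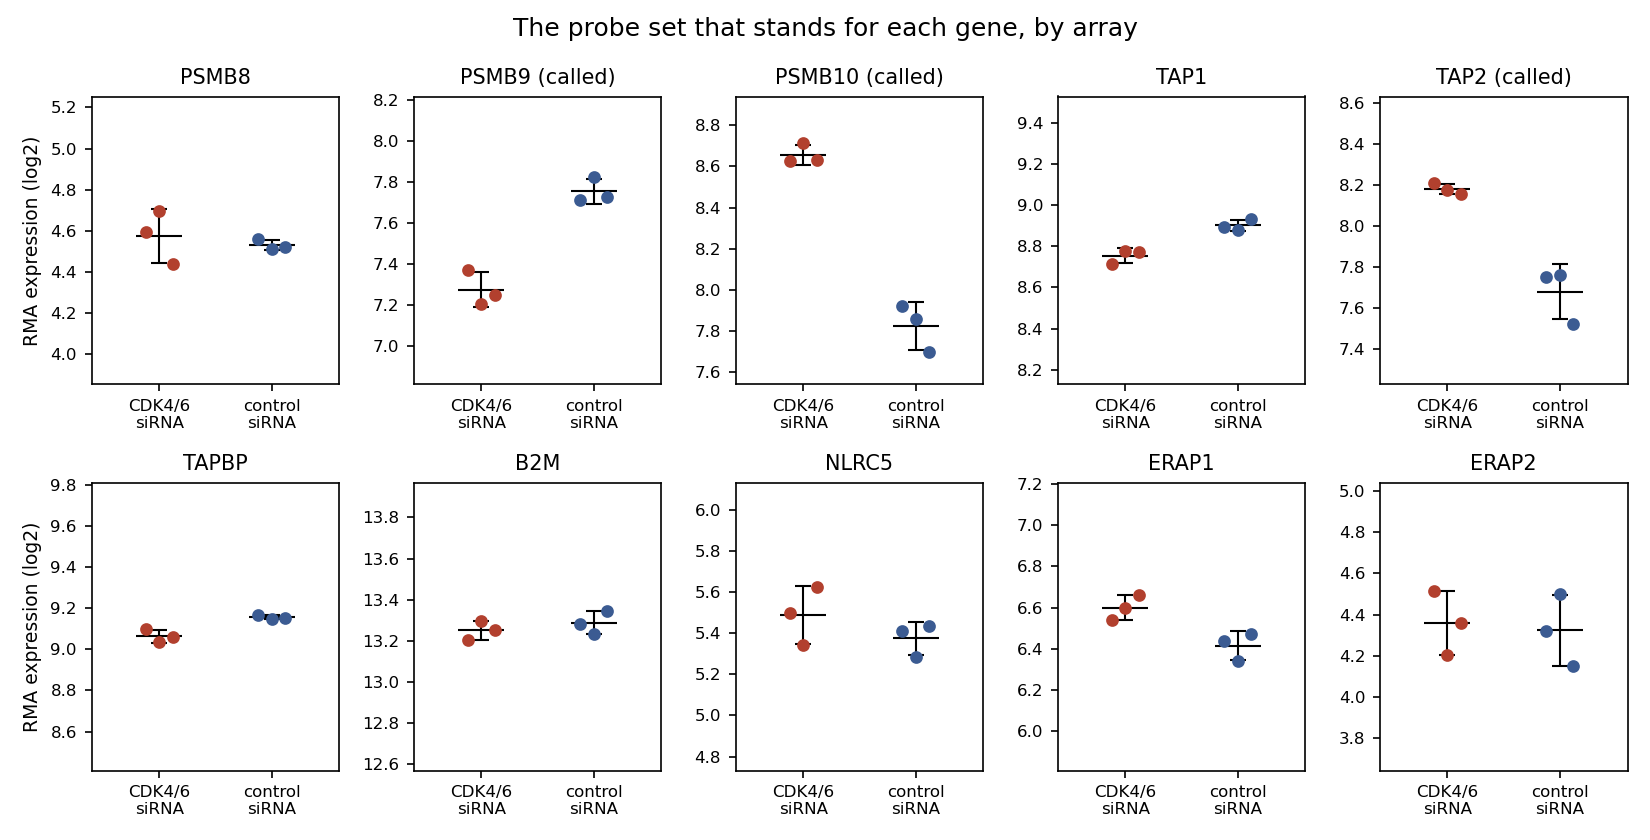
Points are the log2 expression values of the probe set that stands for each gene on the 3 CDK4/6 siRNA arrays (red) and the 3 control siRNA arrays (blue); lines mark the mean and SD. Every panel spans the same height in log2 units. PSMB10 and TAP2 lie higher and PSMB9 lower in every CDK4/6 siRNA array.

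**Figure D2:**
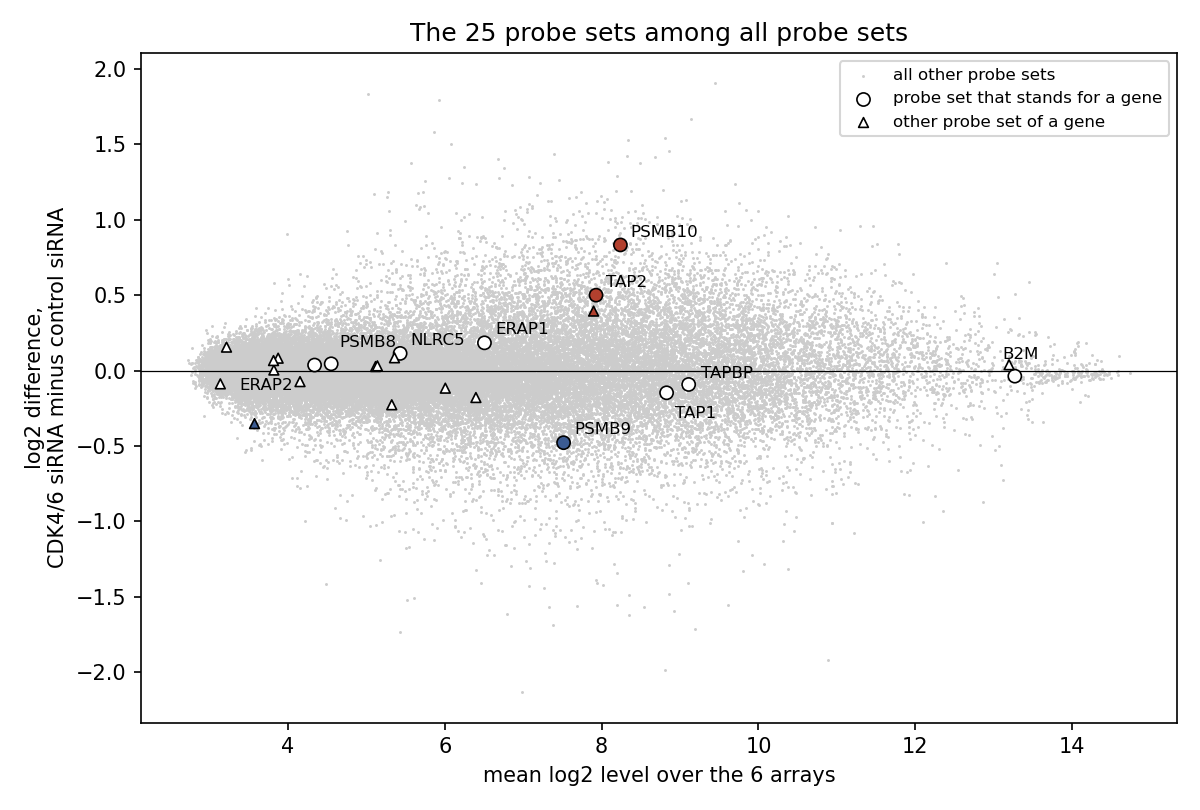
The log2 difference, CDK4/6 siRNA minus control siRNA, of every probe set that is not a control against its mean log2 level over the 6 arrays. Circles are the probe sets that stand for the 10 genes and triangles their other probe sets, with red called higher, blue called lower and white not called. B2M lies at the bright end, and ERAP2 and PSMB8 lie at the dim end.

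Of the 3 catalytic subunits of the immunoproteasome, 1 rose, 1 fell and 1 did not pass the test. PSMB10, the trypsin-like subunit that takes the place of PSMB7, had 8.62, 8.71 and 8.63 on the log2 scale in CDK4/6 siRNA cells, against 7.92, 7.86 and 7.70 in control siRNA cells. All CDK4/6 siRNA arrays were above all control arrays. The means were 8.66 ± 0.05 in CDK4/6 siRNA cells and 7.82 ± 0.12 in control siRNA cells (SD, n = 3 each). The difference was 0.83 (SE 0.074, 95% interval 0.67 to 1.00), a 1.78-fold rise, with an adjusted p of 0.000182 (limma).

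PSMB9, which takes the place of PSMB6, had 7.37, 7.21 and 7.25 in CDK4/6 siRNA cells, against 7.71, 7.82 and 7.73 in control siRNA cells. The groups did not overlap and CDK4/6 siRNA arrays were lower. The means were 7.28 ± 0.08 in CDK4/6 siRNA cells and 7.75 ± 0.06 in control siRNA cells (SD, n = 3 each). The difference was -0.48 (SE 0.069, 95% interval -0.63 to -0.32) with an adjusted p of 0.00148 (limma), so that CDK4/6 siRNA cells held 71.8% of the control value. PSMB8, the replacement for PSMB5, had 4.60, 4.69 and 4.44 in CDK4/6 siRNA cells and 4.56, 4.51 and 4.52 in control siRNA cells. These groups overlapped, and the probe set was dim, brighter than 34.4% of probe sets. Its difference was 0.04 (95% interval -0.13 to 0.22, adjusted p 0.782, limma) and the interval covers changes in both directions.

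To compare each immunoproteasome subunit with its counterpart within an array, the log2 value of the constitutive subunit was subtracted. A change of this difference compares the 2 changes, and its level is not a ratio of transcripts, since probe sets differ in brightness. PSMB10 minus PSMB7 was -3.51, -3.34 and -3.48 in CDK4/6 siRNA cells, against -4.08, -4.05 and -4.10 in control siRNA cells. The difference between groups was 0.63, and every CDK4/6 siRNA array was above every control array. PSMB9 minus PSMB6 was -4.44, -4.50 and -4.58 in CDK4/6 siRNA cells and -4.04, -3.86 and -3.86 in control siRNA cells. It differed by -0.59 with no overlap. PSMB8 minus PSMB5 was -7.01, -6.87 and -7.10 in CDK4/6 siRNA cells and -6.81, -6.79 and -6.65 in control siRNA cells, which differed by -0.25 with no overlap. For 3 arrays against 3, the two-sided exact permutation test gave p = 0.1 for each of the 3 pairs, the smallest it can give, and adjusted over the pairs it was 0.1 too. The constitutive subunits themselves had differences of 0.29 for PSMB5 (adjusted p 0.0193, limma), 0.21 for PSMB7 (adjusted p 0.0856, limma) and 0.11 for PSMB6 (adjusted p 0.365, limma). PSMB5 lost its call when CDK4/6 replicate 1, control replicate 2 or control replicate 3 was left out, with adjusted p of 0.0607, 0.0519 and 0.0635 (limma).

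**Figure D3:**
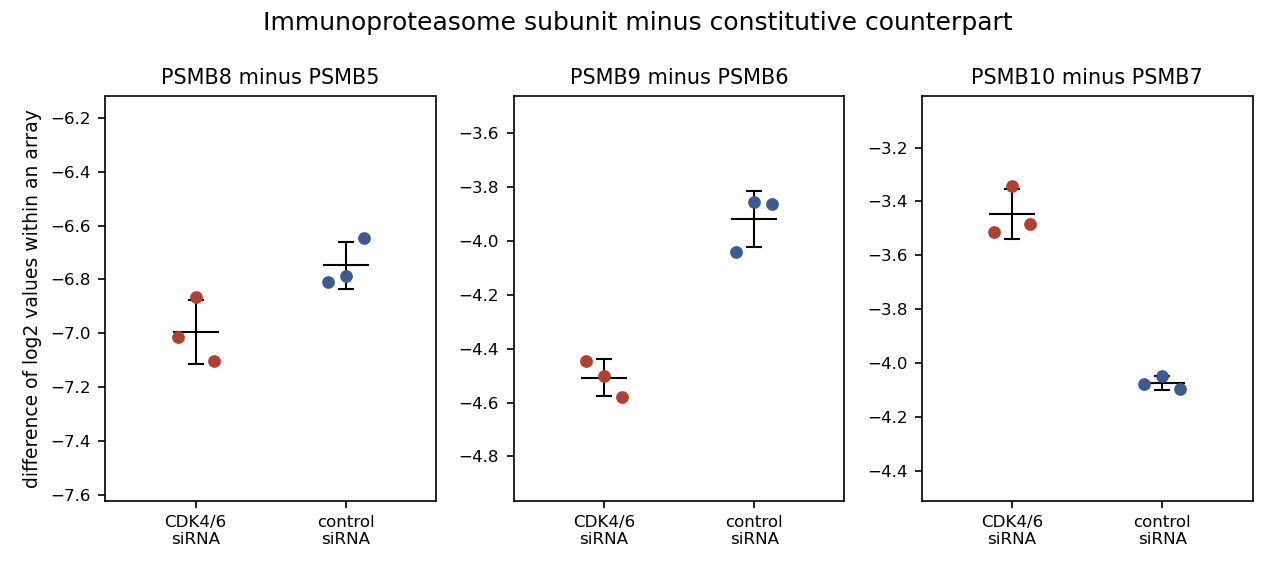
Differences of log2 values within each array, immunoproteasome subunit minus constitutive counterpart, on the 3 CDK4/6 siRNA arrays (red) and 3 control siRNA arrays (blue), with mean and SD. PSMB10 minus PSMB7 is higher, and PSMB9 minus PSMB6 and PSMB8 minus PSMB5 are lower, in every CDK4/6 siRNA array.

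TAP1 and TAP2, the subunits of the peptide transporter, sit in the same stretch of chromosome 6. RefSeq's gene order there runs TAP2, PSMB8, TAP1, PSMB9. TAP2 had 8.21, 8.17 and 8.16 in CDK4/6 siRNA cells, against 7.75, 7.76 and 7.52 in control siRNA cells. All CDK4/6 siRNA arrays were higher, and the means were 8.18 ± 0.03 in CDK4/6 siRNA cells and 7.68 ± 0.13 in control siRNA cells (SD, n = 3 each). The difference was 0.50 (SE 0.077), a 1.41-fold rise, with an adjusted p of 0.00203 (limma). A second bright TAP2 probe set had 8.15, 7.98 and 8.15 in CDK4/6 siRNA cells and 7.69, 7.78 and 7.63 in control siRNA cells. It too rose with no overlap, by 0.39 (adjusted p 0.00576, limma). The 2 dim TAP2 probe sets, with mean levels of 5.12 and 4.16, had differences of 0.03 and -0.07 (adjusted p 0.872 and 0.588, limma). The mean of all 4 TAP2 probe sets gave 0.21, still called (adjusted p 0.0181, limma).

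TAP1 had 8.71, 8.78 and 8.77 in CDK4/6 siRNA cells and 8.89, 8.88 and 8.93 in control siRNA cells. Its groups did not overlap, with CDK4/6 siRNA lower. The difference of -0.15 (SE 0.060, 95% interval -0.28 to -0.01) did not pass the test, with an adjusted p of 0.138 (limma). It was -0.04 when the arrays were scaled to their spike-in controls, which averaged 10.15 in CDK4/6 siRNA arrays and 10.25 in control siRNA arrays. That the transporter's subunits moved unequally was not tested directly.

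TAPBP, which bridges TAP and the class I molecule, had 9.10, 9.04 and 9.06 in CDK4/6 siRNA cells and 9.17, 9.15 and 9.15 in control siRNA cells. These groups did not overlap, and the difference was only -0.09 (SE 0.059, adjusted p 0.367, limma). With spike-in scaling it was 0.016, so its sign depends on the scaling. The other TAPBP probe sets had differences of -0.12 and 0.08, neither called.

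B2M, whose protein every class I molecule needs, was among the brightest probe sets, brighter than 99.6% of them. It had 13.20, 13.29 and 13.25 in CDK4/6 siRNA cells and 13.28, 13.23 and 13.34 in control siRNA cells. The groups overlapped, and the difference was -0.04 (95% interval -0.18 to 0.11, adjusted p 0.781, limma). Spike-in scaling gave 0.071. A second bright B2M probe set differed by 0.04, and a dim one, at a level of 5.32, by -0.23 (adjusted p 0.256, limma).

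NLRC5 had 5.50, 5.34 and 5.62 in CDK4/6 siRNA cells and 5.41, 5.28 and 5.43 in control siRNA cells. The groups overlapped, with a difference of 0.11 (95% interval -0.08 to 0.30, adjusted p 0.455, limma).

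The peptidases that trim peptides in the endoplasmic reticulum showed no change that held over their probe sets. ERAP1 had 6.54, 6.60 and 6.66 in CDK4/6 siRNA cells and 6.44, 6.34 and 6.47 in control siRNA cells. The CDK4/6 siRNA arrays were higher with no overlap, and the difference of 0.18 (SE 0.067, 95% interval 0.03 to 0.33) did not pass the test, with an adjusted p of 0.0999 (limma). With spike-in scaling it was 0.29 and passed the test (adjusted p 0.0217, limma). A second ERAP1 probe set of similar brightness ran the other way, at -0.18 (adjusted p 0.281, limma), with 6.49, 6.17 and 6.27 in CDK4/6 siRNA cells and 6.50, 6.35 and 6.61 in control siRNA cells. A dimmer one, brighter than 10.9% of probe sets, had 3.35, 3.43 and 3.42 in CDK4/6 siRNA cells and 3.70, 3.61 and 3.94 in control siRNA cells. It fell by 0.35 (adjusted p 0.0233, limma), and lost the call without CDK4/6 replicate 1 or 3, without control replicate 3, and with spike-in scaling (adjusted p 0.0721, 0.0602, 0.0554 and 0.105, limma). The probe sets of ERAP1 thus disagree in sign, and no single direction can be given for the gene. The remaining 2 had differences of 0.03 and -0.09.

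ERAP2 was dim, with 4.52, 4.20 and 4.36 in CDK4/6 siRNA cells and 4.32, 4.50 and 4.15 in control siRNA cells. The groups overlapped, and the difference was 0.04 (SE 0.105, adjusted p 0.882, limma). Its other 4 probe sets had mean levels under 4, and differences of 0.0033 to 0.16, with none called.

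**Figure D4:**
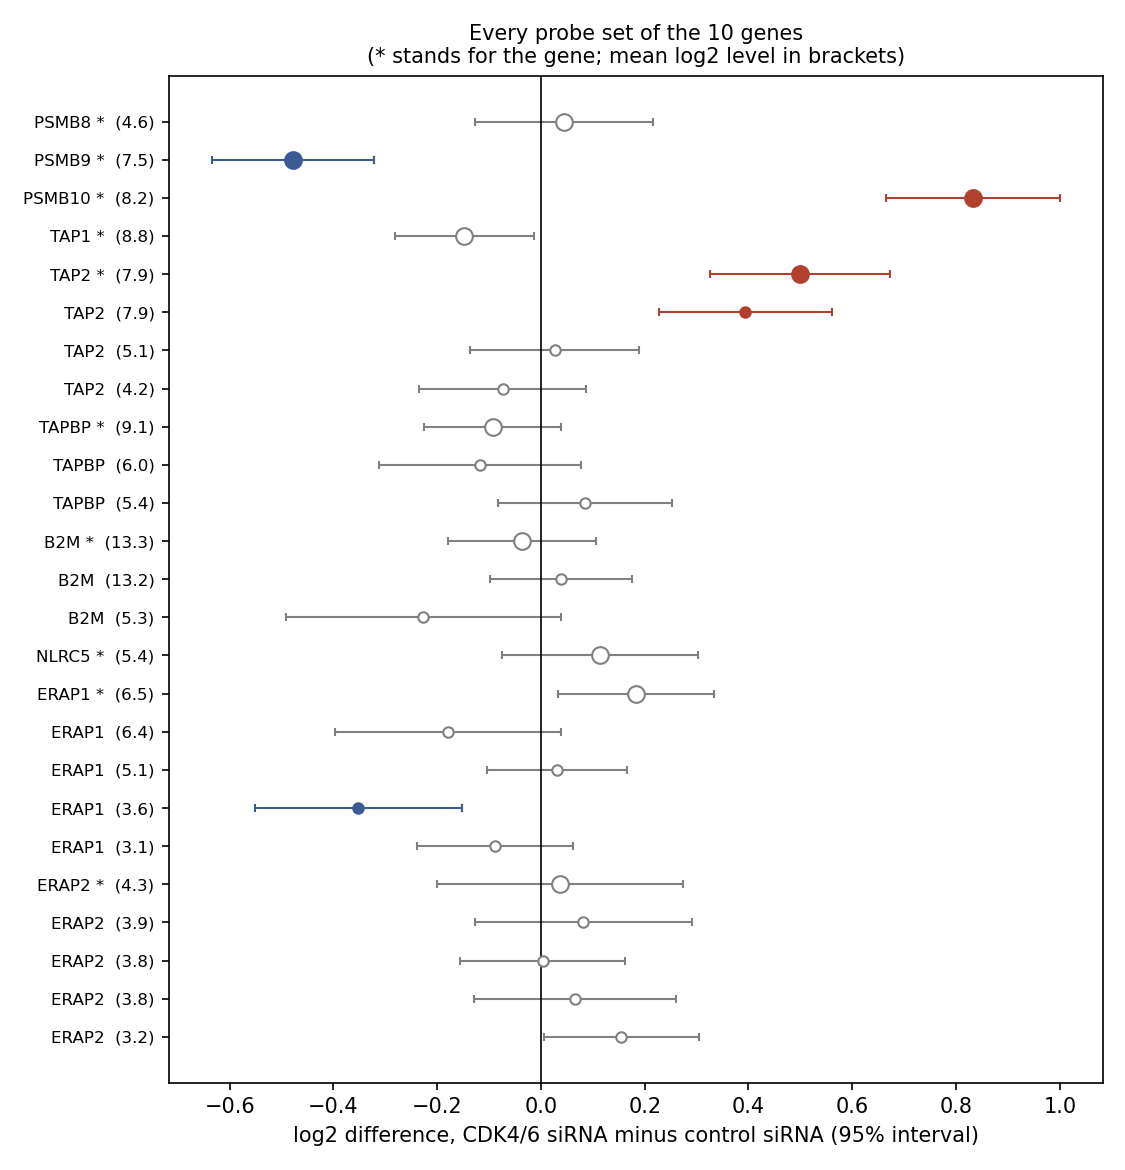
The log2 difference, CDK4/6 siRNA minus control siRNA, with its 95% interval for all 25 probe sets of the 10 genes. Larger circles marked with a star stand for the gene, filled points passed the test (red higher, blue lower), and the number in brackets is the mean log2 level. The ERAP1 and B2M probe sets lie on both sides of 0, and the 2 bright TAP2 probe sets lie together on the right.

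Genes around these 10 in the same pathway, taken from lists chosen with earlier results known, gave the setting. For comparison, the separate fit of the brightest probe set of each gene called 14% of all genes higher and 12.9% lower. Proteasome activators and assembly factors were measured for 7 of 8 listed genes, and 5 were called higher and 0 lower, with a median difference of 0.24. PSME3, a nuclear proteasome activator, differed by 0.98 (adjusted p 0.000257, limma). PSMG1 and PSMG3, chaperones of proteasome assembly, differed by 0.79 (adjusted p 0.000785, limma) and 0.49 (adjusted p 0.00116, limma). POMP, the proteasome maturation protein, differed by 0.24 (adjusted p 0.0297, limma), and passed without control replicate 1 but not without any other single array (0.20 to 0.27, adjusted p up to 0.101, limma). With any 1 array left out, 3 to 4 of the 7 were called. PSME1, another listed activator, differed by -0.02 and was not called (adjusted p 0.859, limma). The listed gene not measured was PSME2, whose probe set carries several symbols.

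The class I heavy chains, which B2M pairs with, were measured for 5 of 6 listed genes, and 0 were higher and 2 lower, with a median difference of -0.20. HLA-E differed by -0.33 (adjusted p 0.00584, limma) and HLA-F by -0.24 (adjusted p 0.0321, limma). With spike-in scaling neither passed, at adjusted p of 0.0526 and 0.273 (limma). HLA-F passed without CDK4/6 replicate 2 but not without any other single array (adjusted p up to 0.104, limma). HLA-G and HLA-B had differences of -0.20 and -0.17, not called. Such probe sets can bind transcripts of near-identical heavy chain genes, so the values of single genes are uncertain.

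Of 5 folding and loading chaperones (CALR, CANX, PDIA3, TAPBPL and UGGT1), 0 passed the test (limma), and 1, UGGT1, had an unadjusted p under 0.05. Their median difference was 0.05, and UGGT1, a glucosyltransferase that senses misfolded glycoproteins, was at 0.19 (adjusted p 0.0699, limma), and passed with median centring (0.20) and with spike-in scaling (0.30). Of 5 other peptidases, 2 were higher and 0 lower, with a median difference of 0.16. BLMH, bleomycin hydrolase, differed by 0.58 (adjusted p 0.00111, limma). TPP2, a giant cytosolic peptidase, differed by 0.34 (adjusted p 0.0134, limma) and lost its call without CDK4/6 replicate 3 or control replicate 3 (adjusted p 0.0555 and 0.0511, limma).

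Interferon gamma signalling and class I transcription genes were measured for 14 of 16 listed genes, and 4 were higher and 3 lower, with a median difference of 0.07. RFX5 and RFXAP, subunits of the factor that binds the X box of MHC promoters, differed by 0.47 (adjusted p 0.000911, limma) and 0.61 (adjusted p 0.00220, limma). RELA, the NF-kappaB subunit p65, differed by -0.37 (adjusted p 0.00338, limma), and IFNGR2, a chain of the interferon gamma receptor, by -0.27 (adjusted p 0.0110, limma). With spike-in scaling 4 were higher and 1 lower, and IFNGR2 lost its call. Among the listed interferon regulatory factors, IRF9 was called higher, with a difference of 0.29 (adjusted p 0.0152, limma). IRF2 differed by -0.20 (adjusted p 0.106, limma) and IRF8 by 0.10 (adjusted p 0.536, limma), neither called. IRF1 was singled out after its value was seen and had a difference of 0.09 (adjusted p 0.499, limma).

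The genes most like PSMB10 over the 6 arrays, by the Euclidean distance of centred log2 values, were LTV1 (0.0795), TMEM177 (0.0813) and GEMIN5 (0.0817). They differed between the groups by 0.85, 0.86 and 0.83. The genes most like PSMB9 were HCFC1R1 (0.0678), SH3PXD2A (0.0709) and WDR20 (0.0764), with differences of -0.48, -0.49 and -0.50. The distance includes the group difference itself, and with 3 arrays a group it is a description only.

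The arrays were alike in scale, with medians between 5.36 and 5.39, and correlations of 0.997 to 0.998 within and 0.992 to 0.994 between groups. Scaling to the spike-ins moved the median difference of all probe sets to 0.10 and made 79.1% of 11178 calls higher, against 52.0% of 9302 as deposited. PSMB10, TAP2 and PSMB9 kept their calls and signs there. The spike-in values, of 18 probe sets, were taken from the same deposited values, whose distributions had already been equalised between arrays. This scaling therefore does not measure RNA per cell, and calls gained or lost under it show only dependence on the scaling. Fewer cells of a type and less RNA per cell cannot be told apart in bulk RNA. EPCAM and KRT18, epithelial markers, were bright at 12.74 and 13.53 in CDK4/6 siRNA cells and 12.80 and 13.02 in control siRNA cells, while the intestinal markers VIL1 and CDX2 were dim, at 5.09 and 5.61 in CDK4/6 siRNA cells and 5.02 and 5.57 in control siRNA cells. Of 8 epithelial markers 3 were higher (KRT8, KRT18 and KRT20) and 1 lower. The lower one was CDH1, with 10.42 in CDK4/6 siRNA cells and 10.96 in control siRNA cells. The log2 values of the 8 summed to 78.6 to 79.1 in CDK4/6 siRNA cells and 77.2 to 77.8 in control siRNA cells. Such a sum of log2 values is not a total of transcripts. Of 7 immune markers 1 was higher, HLA-DRA, with 6.19 in CDK4/6 siRNA cells and 5.72 in control siRNA cells. The log2 values of the 7 summed to 33.1 to 33.6 in CDK4/6 siRNA cells and 32.5 to 32.9 in control siRNA cells. PTPRC, the pan-leukocyte CD45, was dim at 3.87 in CDK4/6 siRNA cells and 3.78 in control siRNA cells. Of 6 endothelial and fibroblast markers 0 were higher and 1 lower, COL1A1, with 7.59 in CDK4/6 siRNA cells and 8.09 in control siRNA cells. Their log2 values summed to 34.3 to 35.1 in CDK4/6 siRNA cells and 34.8 to 36.0 in control siRNA cells. The part of these shifts in the results was not tested.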

How the data were processed

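Total RNA of 6 HCT116 samples was measured on single-channel Affymetrix arrays, 3 per group. The authors deposited log2 values, made with RMA per the submitters' processing notes. RMA corrects background, equalises the distributions of the arrays and summarises the probes of a probe set. Its version is not given in the sources used here. Fold changes are therefore relative to the bulk of the array, and those of dim probe sets are compressed. The number of arrays limits the precision.

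The table held 54675 probe sets. The 62 controls were left out, and genes were named from 41091 probe sets with 1 symbol in the platform annotation. Those with several symbols (1801) or none (11777) named no gene. CDK4/6 siRNA minus control siRNA was fitted by limma 3.58.1 (lmFit, eBayes; R 4.3.3) over all 54613 probe sets, with group as the only term. Named genes were the 10 genes, their constitutive counterparts, up to 4 genes of each pathway list with the smallest adjusted p and the 3 most like PSMB10 and PSMB9. PSME1 and the listed interferon regulatory factors were named besides. Genes and lists were chosen with earlier results of these data known. On simulated data of 54613 probe sets, 48% of 100 changes of 0.5 and 90% of 100 changes of 1 were recovered (log2), with 2 false calls among 140. The simulation held far fewer changes than the 9302 probe sets called in the data, which makes the adjustment stricter. Its shares therefore do not give the chance of a call in the data. Alternatives were other scalings, no variance moderation, a threshold of 0.01, leaving out the dimmest 25% of probe sets, other ways to choose a probe set, a replicate block and leaving out each array.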

Additional observations from a re-analysis of the deposited data

How the results depend on the processing

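PSMB10, TAP2 and PSMB9 stayed called with the same sign in all 19 alternatives, at 0.77 to 0.94, 0.21 to 0.61 and -0.53 to -0.37 on the log2 scale. The lowest TAP2 value came from the mean of its 4 probe sets (adjusted p 0.0181, limma), and its highest adjusted p was 0.0389, without variance moderation (limma). Without variance moderation 2 genes were lower, because TAP1 joined PSMB9 (adjusted p 0.0473, limma), and the second TAP2 and the dim ERAP1 probe set lost their calls (adjusted p 0.0518 and 0.134, limma). Signs turned for genes that were not called, and the cause was not tested: B2M was 0.071 and TAPBP 0.016 when scaled to the spike-ins, and ERAP1 was -0.081 by the mean of its probe sets and -0.18 by its probe set with a plain name. With 1 array left out, PSMB8 ran between -0.015 and 0.11 and ERAP2 between -0.050 and 0.12.

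The groups share replicate numbers, which the labels do not tie to a day or batch. Same-numbered arrays deviated together with correlations of -0.026, -0.060 and -0.0081, so the numbers pair nothing here. With the replicate block 2 genes were higher and 1 lower, and calls over all probe sets numbered 8249, against 9302. The smallest p that 3 arrays against 3 allow is 0.1, so the counterpart comparisons could not pass the threshold, and with the replicate block each had p = 0.25 by the exact sign-flip test, the smallest it can give. Dim probe sets limit PSMB8 and ERAP2.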
